A study of Homo sapiens with 6 samples.

Results

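The regions described here are narrow peaks of RNA polymerase I (Pol I) that lie far from any listed peak of RNA polymerase II (Pol II) in LNCaP cells given the solvent DMSO. They were chosen by peak width and by distance to Pol II, as all peaks of the DMSO Pol I list that were at most 1000 bp wide and had no peak of the DMSO Pol II list or the BMH-21 Pol II list within 10 kb, edge to edge, on hg19. The rule gave 25185 of 42547 DMSO Pol I peaks (59.2%), which covered 11.8 Mb, 54.9% of the length under the whole list. These distant narrow peaks are therefore the main body of the list and not a rare class. A further 2 narrow peaks had a gap of exactly 10 kb and were left out. The rest of the list was made up of 16283 narrow peaks with a Pol II peak within 10 kb, 400 wide peaks without one and 679 wide peaks with one.

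LNCaP is an androgen-responsive human prostate cancer cell line. Cells were given DMSO or 1 µM BMH-21, a DNA-intercalating small molecule that inhibits Pol I, for 6 h, and chromatin was immunoprecipitated and sequenced. The DMSO Pol I library supplied the members. The Pol II libraries of both treatments, made with an antibody labelled as against the serine 5-phosphorylated C-terminal repeats, entered the rule. The Pol I library of the BMH-21 cells did not enter the rule and was used for neighbours. Each antibody and treatment had 1 library, so a replicate error and a p-value could not be had for any value below. All intervals are at the 95% level and reflect the counting of peaks alone, and peaks of a library are not independent replicates. The lists hold no read counts, so the depth of the libraries is unknown. The labels do not name the Pol I subunit that the antibody recognises.

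Pol I transcribes the long precursor of the large ribosomal RNAs from tandem repeats in the nucleolus. Those repeats are largely left out of hg19, so the listed peaks describe Pol I signal on the rest of the genome and not at its main template. Pol II transcribes messenger RNA genes and many noncoding RNA genes, and phosphorylation at serine 5 marks polymerase close to the start of transcription. Peaks that carry one polymerase signal without the other nearby ask where Pol I signal was listed away from such starts. No gene annotation, genome sequence or repeat map of hg19 was used, so regions are given by coordinates and no gene or sequence is named.

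The members were narrow and mostly of low score. Their median width was 445 bp (interval 443 to 447), with quartiles at 373 and 543 bp. Each peak has a score that the authors gave it, with a floor of 50 in the list and a scale that is not stated. The median score over the members was 91.8 (interval 91.2 to 92.5), 55.8% of members were under 100, and 83 of 25185 members reached 500 or more. For the whole list the share under 100 was 51.1%, and 439 of 42547 peaks reached 500 or more. Of the 16283 narrow peaks near Pol II, 136 did so. Narrow peaks near Pol II had a median width of 485 bp and a median score of 105.1. Wide peaks far from Pol II had a median width of 1158 bp and a median score of 338. Width and distance to Pol II chose the members, so these values describe the classes and test nothing.

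Score rose with width on both sides of the distance limit, and at equal width the medians were close. Among peaks of 400 to 499 bp, the median score was 92.2 (interval 91.5 to 93.1) in 7850 distant peaks and 92.1 (interval 91.4 to 93.2) in 4569 peaks near Pol II. The medians were 65.89 and 65.9 for peaks of 300 to 399 bp, and 139 and 136 for peaks of 500 to 599 bp. At 800 to 1000 bp the distant peaks had a median of 237 (interval 228 to 247) and the near peaks 249.6 (interval 242 to 257), with intervals that overlapped.

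**Figure D1:**
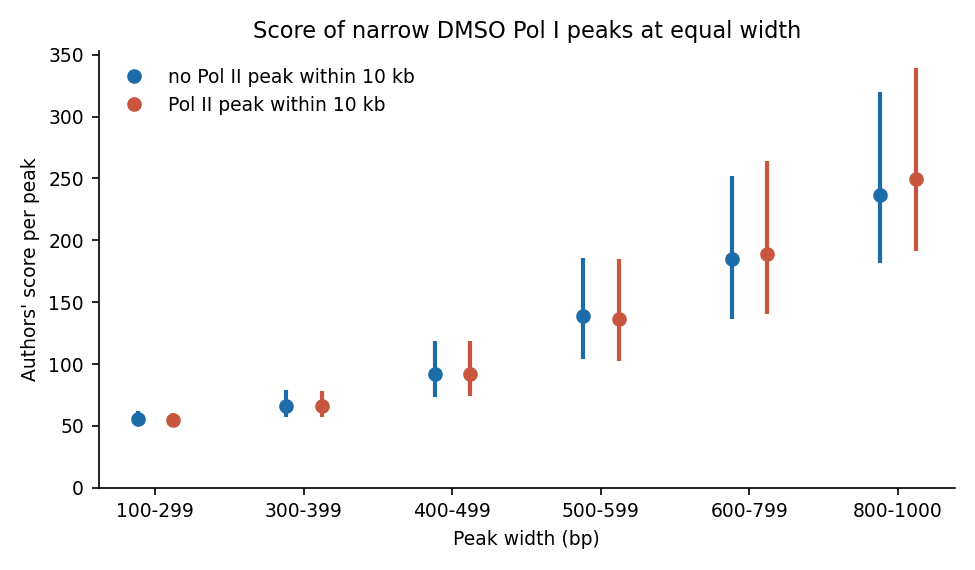
Authors' score per peak (vertical axis) against peak width in bp (horizontal axis) for narrow DMSO Pol I peaks without (blue) and with (red) a listed Pol II peak within 10 kb. Points are medians and bars run from the lower to the upper quartile; the blue and red medians lie side by side in every width band, for example 92.2 and 92.1 at 400 to 499 bp.

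The values next to the limits of the rule are given as a description. The widest member, 1000 bp long on chromosome 17 at 61597339 to 61598338, had a score of 287.45, and the narrowest distant peak above the limit, 1001 bp long on chromosome 11 at 85955396 to 85956396, had 256.72. The median score was 266 in the 114 members within 50 bp of the width limit and 283 in the 72 distant peaks just above it. The member closest to Pol II was on chromosome 5 at 50196133 to 50196648, with a gap of 10001 bp and a score of 140.11. A peak on chromosome 6 at 116421870 to 116422569, with a gap of 10000 bp and a score of 131.15, fell just outside. The median score was 103.4 in the 516 members up to 1 kb beyond the distance limit and 93.96 in the 546 narrow peaks up to 1 kb inside it.

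Most members were well beyond the limit. Their median gap to the nearest listed Pol II peak was 57.9 kb, 10% of them were more than 231 kb away, and the largest gap was 1611 kb. The nearest Pol II peak was one of the DMSO list for 19126 members (75.9%) and one of the BMH-21 list for 6059 (24.1%). The DMSO Pol II list holds 28798 peaks and the BMH-21 Pol II list 11540, and the part of list length in these shares was not tested.

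The 10 members with the highest score were 686 to 969 bp wide. The leading one, at 237994197 to 237994944 of chromosome 2, had a score of 1026.04 and lay 32.3 kb from a DMSO Pol II peak and 257 kb from a BMH-21 Pol II peak. Chromosome 2 held another of the 10, from 114689780 to 114690528, with a score of 840.48. A score of 1013.89 was given to the member spanning 71293171 to 71294139 of chromosome 18, which lay 106 kb from DMSO Pol II and 34.6 kb from BMH-21 Pol II. Chromosome 9 followed with 951.71 for the member from 135819663 to 135820485. Both leading members of chromosome 20 were of similar width, 897 bp from 47537956 to 47538852 (score 870.28) and 768 bp from 24387555 to 24388322 (score 749.9). Those of chromosome 6 ran from 135375479 to 135376350 (865.7) and from 83586735 to 83587420 (771.09). The last of the group were the member from 1627630 to 1628413 on chromosome 17 (821.35), only 13.99 kb from DMSO Pol II, and the one from 66901088 to 66902010 on chromosome 4 (770.83), which was 531 kb from DMSO Pol II but 65.8 kb from BMH-21 Pol II. None of these 10 had a BMH-21 Pol I peak within 10 kb, and 4 had another DMSO Pol I peak within 10 kb. Over all DMSO Pol I peaks the shares were 2.45% and 42.5%, so that counts over 10 peaks set these members apart in neither respect. The leading member of chromosome 9 lay 1.39 kb from its neighbour, and the one starting at 83586735 on chromosome 6 lay 53.1 kb from its neighbour.

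Distance in these lists means distance from listed Pol II peaks, and the numbering of those lists has gaps. Each peak carries a running number that follows position, and 26641 of 55439 numbers (48.1%) are skipped in the DMSO Pol II list and 38704 of 50244 (77.0%) in the BMH-21 Pol II list. A member therefore lies in a stretch between consecutive listed Pol II peaks that may hold peaks which were numbered and then not listed, although the sources used here do not say what a skipped number stands for. Only 3393 members (13.5%, exact Clopper-Pearson interval 13.1 to 13.9) lay in a DMSO Pol II stretch that skipped no number, against 19.3% of all DMSO Pol I peaks. The latter share includes 44.9% for narrow peaks that overlap Pol II, and it was 17.1% to 18.5% for narrow peaks beside Pol II with a gap of up to 10 kb. Among members it went from 19.3% at 10 to 20 kb from Pol II to 5.07% beyond 200 kb, so the contrast with all peaks moves with the distance that the rule used. In the BMH-21 Pol II list the count was 701 members (2.78%, interval 2.58 to 2.99; 4.52% of all DMSO Pol I peaks). Both stretches were free of skipped numbers for 347 members (1.38%, interval 1.24 to 1.53; 2.24% of all), and at least 1 of them for 3747 (14.9%, interval 14.4 to 15.3; 21.6% of all). The median member sat in a DMSO Pol II stretch of 350.02 kb with 2 skipped numbers and in a BMH-21 Pol II stretch of 954 kb with 8. Where a skipped peak lay inside a stretch is not given, so for the other members a Pol II peak within 10 kb may have been numbered without being listed.

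High-scored members lay less often in stretches without a skipped number. The share was 13.8% (interval 12.5 to 15.2) in the lowest of 10 equal score bins and 15.6% (interval 14.2 to 17.1) in the next, and it was 8.54% (interval 7.47 to 9.69) in the highest. The difference between the highest and the lowest bin was -5.28 percentage points (Newcombe interval -7.02 to -3.55). Of the 83 members with a score of 500 or more, 3 (3.61%, interval 0.752 to 10.2) lay in such a stretch. Of the 10 leading members named above none did: their DMSO Pol II stretches skipped 2 to 5 numbers and their BMH-21 Pol II stretches 5 to 44. These 10 are among the 83 and in the highest bin. With shares of 8.54% in that bin and 13.5% over all members, a count over 10 peaks does not set them apart. Among the 400 wide distant peaks the share was 2%, with 8 peaks, which is 11.5 percentage points below that of the members (interval 9.53 to 12.5). Near Pol II it was 29.0% for narrow peaks and 12.4% (interval 9.99 to 15.1) for wide ones. A lower share in wide peaks was thus not particular to distant peaks. Score bins and the level of 500 were taken over members only, so whether the trend is particular to them was not tested.

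Stretches were also compared at equal length, because a longer stretch has room for more skipped numbers. In stretches of 50 to 100 kb, the median score was 83.3 (interval 80.03 to 90.06) for 594 members without a skipped number and 101.6 (interval 97.5 to 106) for 1608 members with at least 1. Above 500 kb the medians were 82.3 (interval 79.01 to 87.3) and 90.9 (interval 89.4 to 91.96). In stretches of 20 to 50 kb they were 84.98 and 110.25, and in the other length classes the order was also the same, with intervals that did not overlap in any of the 5 classes. Members in stretches with skipped numbers were also wider, with medians of 498 against 430 bp at 20 to 50 kb. Over all lengths together, scores of 300 or more were reached by 3.89% (interval 3.64 to 4.15) of members with a skipped number in the stretch. The share was 1.92% (interval 1.48 to 2.44) for those without, but median stretch lengths differed, at 382 and 187 kb. At equal length the order was the same in each class, with intervals that overlapped at 20 to 50 kb and above 500 kb.

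**Figure D2:**
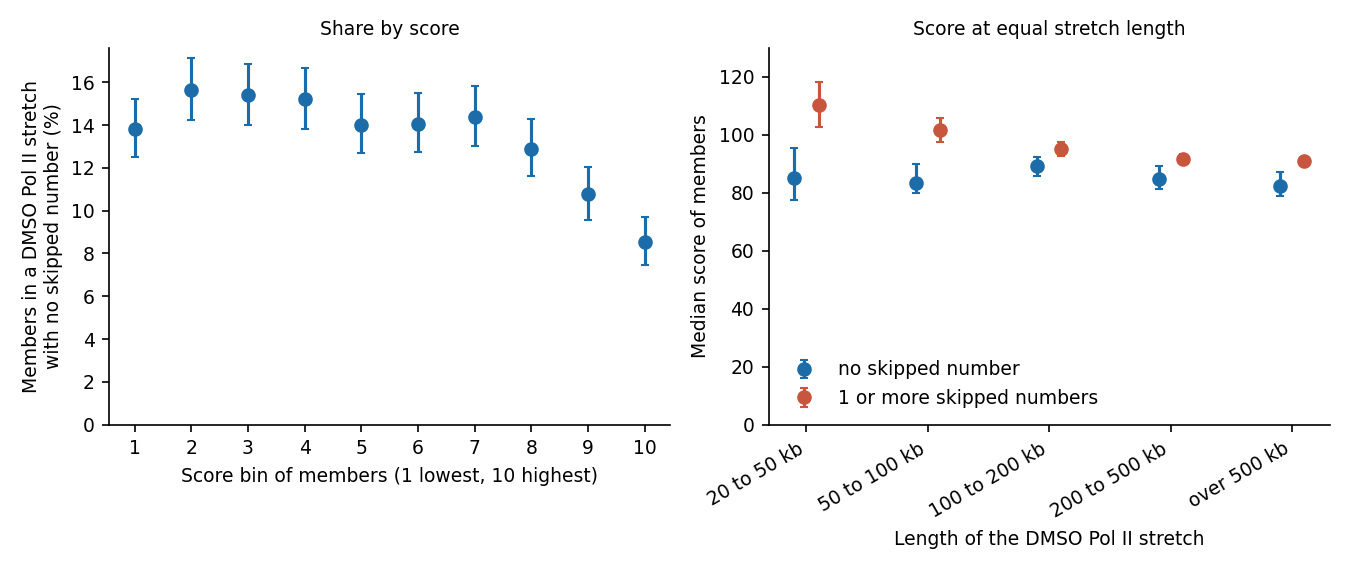
Left: percent of members in a DMSO Pol II stretch with no skipped number (vertical axis) by score bin, from 1 (lowest) to 10 (highest) (horizontal axis), at 13.8% in bin 1 and 8.54% in bin 10. Right: median score of members (vertical axis) by length of the DMSO Pol II stretch in kb (horizontal axis), for members without (blue) and with (red) skipped numbers; red lies above blue in each length class, and bars in both plots are 95% counting intervals.

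The members were spaced more widely than the other Pol I peaks. Another listed DMSO Pol I peak lay within 10 kb of 8330 members (33.1%, interval 32.5 to 33.7), against 42.5% of all DMSO Pol I peaks. The share was 56.4% (interval 55.6 to 57.1) for narrow peaks near Pol II, a difference of -23.3 percentage points (interval -24.2 to -22.3), and 45.5% (interval 40.5 to 50.5) for wide distant peaks, a difference of -12.4 points (interval -17.4 to -7.58). The median gap to the next Pol I peak was 18.8 kb for members and 7.66 kb for narrow peaks near Pol II. That near class was mixed. The share was 63.1% to 67.1% for those beside Pol II with a gap of up to 10 kb. For those overlapping Pol II it was 44.0% (interval 42.8 to 45.2), with a median gap of 12.9 kb. Members 10 to 20 kb from Pol II were close to the latter, at 40.9% and 12.1 kb. No other Pol I peak lay within 100 kb of 1937 members (7.69%, interval 7.36 to 8.03), against 5.69% of all DMSO Pol I peaks and 2.82% (interval 2.57 to 3.08) of narrow peaks near Pol II.

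Within the members, spacing grew with distance from Pol II. A Pol I neighbour within 10 kb was found for 40.9% (interval 39.5 to 42.4) of members 10 to 20 kb from Pol II, for 32.2% (interval 30.97 to 33.4) at 50 to 100 kb, and for 23.7% (interval 22.3 to 25.3) beyond 200 kb. Median score and width went the same way over smaller ranges, from 97.1 (interval 94.3 to 98.99) and 463 bp at 10 to 20 kb to 87.1 (interval 85.3 to 90.02) and 425.5 bp beyond 200 kb. These bands share 1 library. A skipped Pol I number could also hide a neighbour. Both numbers next to a member's own were listed for 60.2% of members (interval 59.5 to 60.8) and for 59.8% of all DMSO Pol I peaks. For narrow peaks near Pol II that share was 59.4%, so the members differed from them by 0.739 points, with an interval from -0.227 to 1.71.

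Few members had Pol I listed close by after BMH-21. A BMH-21 Pol I peak lay within 10 kb of 432 members (1.72%, interval 1.56 to 1.88), against 2.45% of all DMSO Pol I peaks. In the 3393 members without a skipped DMSO Pol II number the share was 0.943% (interval 0.646 to 1.33). The share was 3.29% (interval 3.02 to 3.58) for narrow peaks near Pol II, a difference of -1.58 points (interval -1.90 to -1.26), and 6.5% (interval 4.29 to 9.38) for wide distant peaks, a difference of -4.78 points (interval -7.64 to -2.75). The narrow peaks near Pol II were mixed: 2.07% (interval 1.75 to 2.44) for those overlapping Pol II and 3.56% to 4.38% for those beside it. Within 1 kb there were 109 members (0.433%, interval 0.356 to 0.522; 0.578% of all DMSO Pol I peaks). Among members, the share at 10 kb fell with distance from Pol II. It went from 2.59% (interval 2.14 to 3.11) at 10 to 20 kb to 1.08% (interval 0.755 to 1.502) beyond 200 kb. Over all narrow peaks the fall was not steady, given the 2.07% in those overlapping Pol II. Of 1932 BMH-21 Pol I peaks, 0 overlapped a DMSO Pol I peak by 1 bp or more, and the BMH-21 Pol I list skips 87.7% of its numbers, so these counts describe listed neighbours and not Pol I kept after BMH-21.

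**Figure D3:**
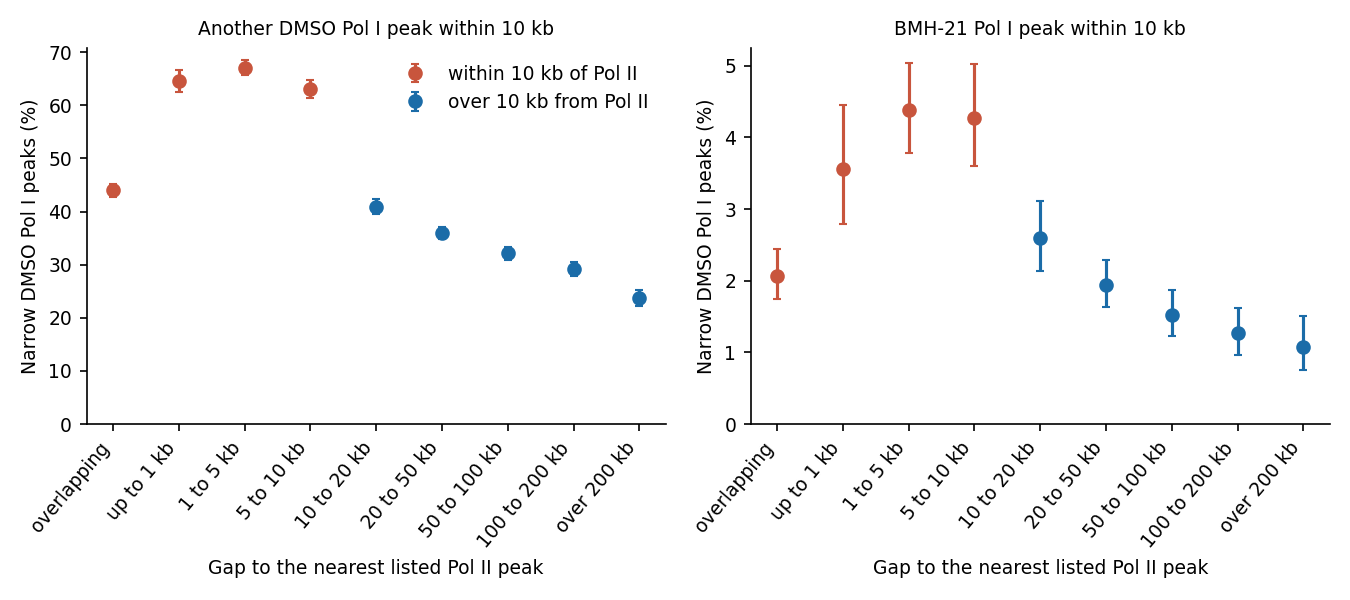
Percent of narrow DMSO Pol I peaks (vertical axes) with another DMSO Pol I peak (left) or a BMH-21 Pol I peak (right) within 10 kb, by gap to the nearest listed Pol II peak (horizontal axes); bars are exact 95% intervals. Members (blue) go from 40.9% to 23.7% on the left and from 2.59% to 1.08% on the right as the gap grows.

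Where both lists had a peak, they could stand almost edge to edge. Since no BMH-21 Pol I peak overlapped a DMSO Pol I peak, a gap was the only arrangement these lists could show. Whether the way they were made excluded overlap is not stated. The smallest gap was on chromosome 3, where the member at 154568550 to 154569292 (score 219.85) lay 2 bp from a BMH-21 Pol I peak at 154569295 to 154569597 (score 92.51). On chromosome 6 the member at 118520647 to 118521147 (score 87.3) lay 4 bp from a BMH-21 peak of 252 bp, and on chromosome 5 the member at 162806611 to 162807019 (score 97.58) lay 5 bp from one of 184 bp. The next pair both belonged to chromosome 22, from 46483410 to 46483667 (score 51.14) and from 46469299 to 46469525 (score 51.54), each 7 bp from its BMH-21 neighbour. In all 5 pairs the BMH-21 peak was narrower than the member. Seen from the other list, 345 of 1932 BMH-21 Pol I peaks (17.9%) lay within 10 kb of a member and 103 (5.33%) within 1 kb. Within the same distances of any DMSO Pol I peak lay 763 (39.5%) and 243 (12.6%), and of a narrow peak near Pol II 426 (22.05%, interval 20.2 to 23.97) and 114 (5.90%). The members are 59.2% of the DMSO Pol I list and the narrow peaks near Pol II 38.3%. The 103 had a median score of 59.2 and a median width of 216 bp, against 60.7 and 216 bp for the whole BMH-21 Pol I list.

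The members farthest from Pol II lay in very long stretches without a listed Pol II peak. A pair near the start of chromosome 3, from 422455 to 423004 (score 144.96) and from 471732 to 472265 (score 234.3), lay 1611 and 1561 kb from Pol II and had no listed Pol II peak on the side of the chromosome end. On chromosome 5 the member at 3372370 to 3372746 (score 87.76) was 1488 kb away, in a DMSO Pol II stretch of 2978 kb that skipped 6 numbers. The member on chromosome 4 at 180211338 to 180211782 (score 137.18) was 1479.96 kb away in a stretch of 5092 kb with 7 skipped numbers. On chromosome 1 the member at 105538802 to 105539374 (score 127.19) was 1439 kb away with 10 skipped numbers in its stretch, and had a Pol I neighbour at 3.999 kb.

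Members were spread more evenly over the autosomes than narrow peaks near Pol II. The rule split narrow peaks by distance to listed Pol II peaks, so the density of Pol II peaks on a chromosome enters this contrast. The densities and shares below therefore describe the classes and test nothing. Over the 22 autosomes members ran from 6.63 per Mb on chromosome 16 to 10.3 per Mb on chromosome 15, a 1.55-fold range, where Mb is the span from the first to the last listed DMSO Pol I peak. Narrow peaks near Pol II ran from 3.57 per Mb on chromosome 13 to 12.3 per Mb on chromosome 19, a 3.44-fold range. As a result the share of members among DMSO Pol I peaks was lowest on chromosome 19 (34.1%, interval 31.4 to 36.8), followed by chromosome 16 (42.8%, interval 40.2 to 45.4), chromosome 22 (44.6%, interval 40.7 to 48.6) and chromosome 17 (46.5%, interval 44.1 to 48.97). It was highest on chromosome X (71.8%, interval 68.6 to 74.9) and chromosome Y (70.3%, interval 62.9 to 77.1). Over 24 chromosomes the median was 60.4%. The sex chromosomes had few peaks of either kind, with 3.87 members per Mb on X and 2.05 on Y. Chromosome 19 is known as the most gene-dense human chromosome, and the part of gene density in these shares was not tested. A high density of peaks near Pol II did not always come with few members: chromosome 17 had 9.90 of the former and 9.53 of the latter per Mb, and chromosome 16 had 8.41 and 6.63.

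**Figure D4:**
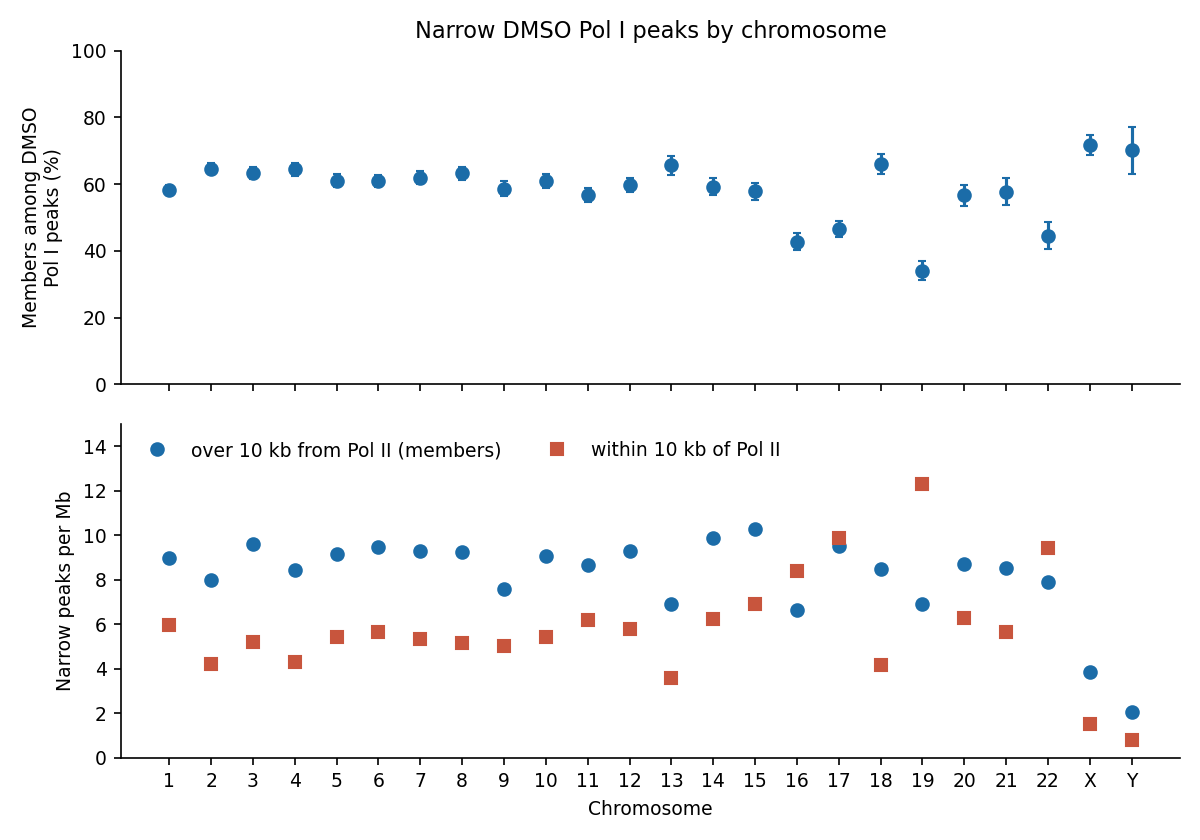
Top: percent of DMSO Pol I peaks that are members, per chromosome, with exact 95% intervals. Bottom: narrow peaks per Mb, for members (blue circles) and narrow peaks within 10 kb of Pol II (red squares); members stay between 6.63 and 10.3 per Mb on the autosomes, while the peaks near Pol II reach 12.3 on chromosome 19.

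The members of different chromosomes were alike in score, with medians from 86.2 on chromosome Y to 100.57 on chromosome 19. Their median gap to Pol II ran from 27.7 kb on chromosome 19 to 108 kb on chromosome X. A Pol I neighbour within 10 kb was found for 39.6% of members on chromosome 19 and for 13.5% on chromosome X. The share with a BMH-21 Pol I peak within 10 kb was highest on chromosome 22, at 19 of 278 members (6.83%, interval 4.16 to 10.5), and 12 of these 19 belonged to 1 run described below. Without that run, 7 of 266 members (2.63%, interval 1.06 to 5.35) remained. With only that run left out, the highest shares were those of chromosome Y, with 7 of 121 (5.79%, interval 2.36 to 11.6), and chromosome 19, with 16 of 409 (3.91%, interval 2.25 to 6.28). Of these 16 on chromosome 19, 8 belonged to 1 run of 9 members, which was not left out, so these shares do not rank chromosomes free of large runs. Chromosome 3 had the lowest share, 11 of 1896 (0.580%, interval 0.290 to 1.04).

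Most members had no other listed member within 10 kb. With runs taken as members separated by at most 10 kb, 17378 members (69.0%) were single, 2721 runs had 2 members and 549 had 3. Runs were counted over members only, so whether their make-up is particular to this class was not tested. Single members also stood more often beside a skipped Pol I number: both neighbouring numbers were listed for 54.9% of them (interval 54.1 to 55.6), against 71.7% (interval 70.7 to 72.8) in runs of 2 or 3 and 78.7% (interval 75.1 to 82.1) in runs of 4 or 5. A run needs a listed member within 10 kb, which makes a listed next number more likely, so this contrast is partly built in. A skipped peak could have broken a run, and the share that stood alone counts listed members only. In runs of 6 or more, both numbers were listed for 56.4% (interval 48.5 to 64.2). Only 21 runs had 6 or more, with 163 members in all (0.647%). Median scores had overlapping intervals, at 91.5 (interval 90.5 to 92.2) for single members and 89.2 (interval 78.9 to 99.6) in runs of 6 or more. A BMH-21 Pol I peak lay within 10 kb of 199 of the 17378 single members (1.15%, interval 0.992 to 1.31), of 78 of 3270 runs of 2 or 3 (2.39%, interval 1.89 to 2.97), of 11 of 131 runs of 4 or 5 (8.40%, interval 4.27 to 14.53) and of 9 of 21 larger runs (42.9%, interval 21.8 to 65.98). Longer runs span more sequence, with a median of 24.97 kb for runs of 6 or more, and so have more room for a neighbour. Without the runs of 6 or more, the share over all members was 1.53%.

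The run with the most members was on chromosome 11 at 49181398 to 49226214, with 14 members over 44.8 kb. Their scores ran from 50.93 to 157.04 with a median of 74.4, and the nearest listed Pol II peak was 55.7 kb away. A run on chromosome 7 at 89822130 to 89881111 had 12 members over 58.98 kb with scores of 52.44 to 102.09. In both, 5 members at the end of higher coordinates had a BMH-21 Pol I peak within 10 kb and the rest had none.

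A run on chromosome 22 at 46457458 to 46483667 held 12 members in 26.2 kb, and all 12 had a BMH-21 Pol I peak within 10 kb. Its scores ran from 51.14 to 249.4, with the highest at 46467264 to 46467809 and the next, 234.82, at 46474310 to 46474943. In its span, 5 BMH-21 Pol I peaks were listed between the members and 13 DMSO Pol I numbers were skipped, the most among the 5 largest runs. The nearest listed Pol II peak was 10.1 kb away, so this run lay just inside the rule. A run on chromosome 19 at 13116695 to 13145439 had 9 members, 8 of them with a BMH-21 Pol I peak within 10 kb, and scores of 51.44 to 240.69. The BMH-21 Pol II stretch around it skipped 114 numbers and the DMSO Pol II stretch 13. The run on chromosome 12 at 81955363 to 81989598, also with 9 members and scores of 60.17 to 182.09, had its nearest BMH-21 Pol I peak 236540 bp away.

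**Figure D5:**
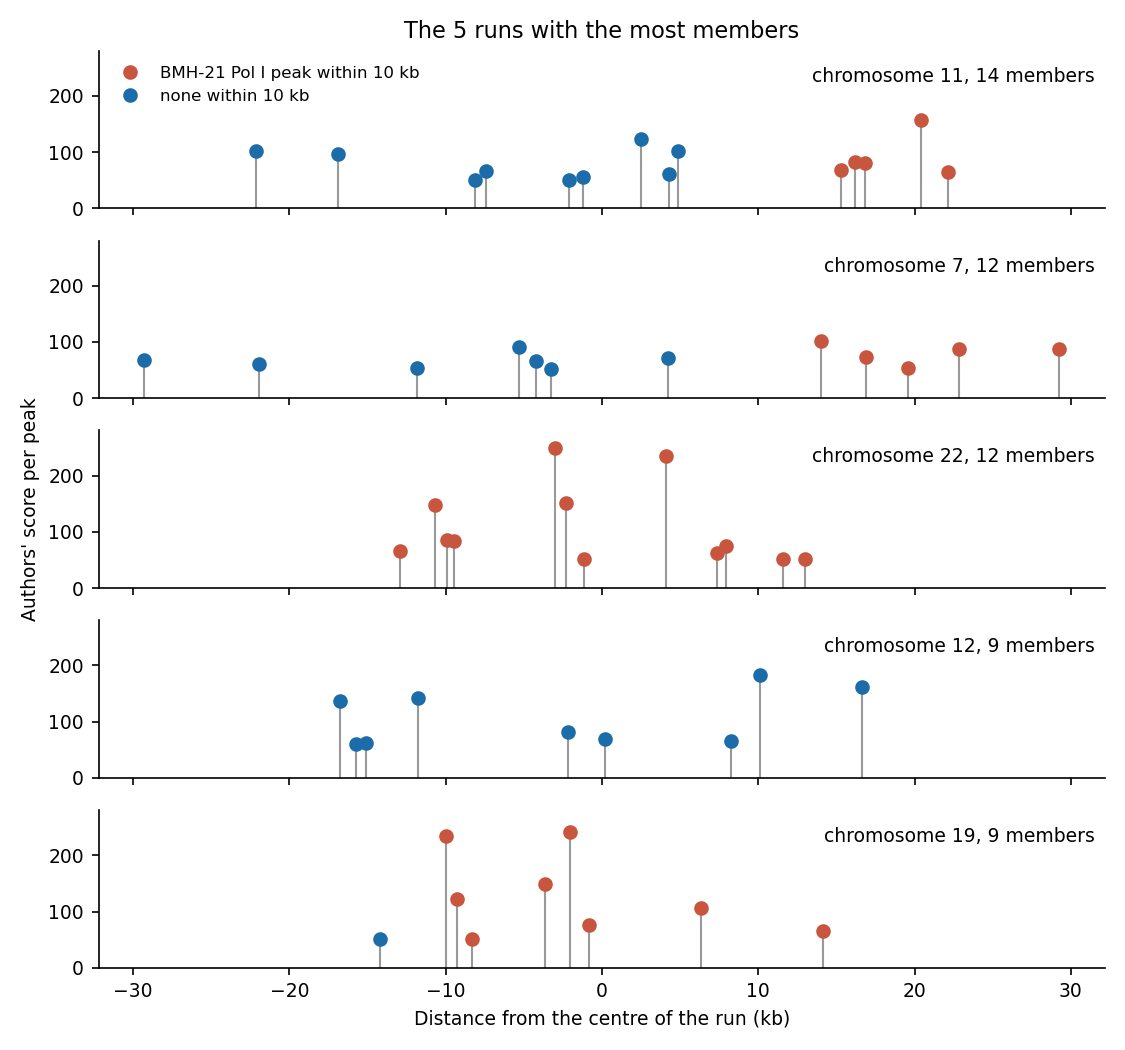
Authors' score of each member (vertical axes) by distance from the centre of its run in kb (horizontal axis) for the 5 runs with the most members; red points have a BMH-21 Pol I peak within 10 kb and blue points do not. All 12 members on chromosome 22 and 8 of 9 on chromosome 19 are red, and none of the 9 on chromosome 12 is.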

How the data were processed

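The deposited files were peak lists, 1 per ChIP library, with chromosome, start, end, a numbered peak name beginning with MACS and, per the file headers, a p-value. Its values start at 50, so the deposited column is treated as the authors' score on an unstated scale. Positions in the deposited lists are in bp on hg19. The tools listed, per the submitters' processing notes, are Bowtie2 2.2.1, CASAVA 1.8.2 and deepTools 3.5.4, without their roles. Not given in the sources used here: caller settings, use of the 2 input libraries and how listed peaks were selected. Depth is unknown.

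Gaps were measured edge to edge, and a gap of 10 kb or less counted as within. Starts are printed 1-based. Of the narrow peaks, bedtools 2.31.1 kept 25187, including the 2 with a gap of exactly 10 kb. Shares have exact Clopper-Pearson intervals, differences Newcombe intervals and medians order-statistic intervals. Distance and numbering functions gave 0 wrong values on 1200 simulated peaks. Python 3.11.15, NumPy 2.4.6, pandas 2.3.3, SciPy 1.17.1 and matplotlib 3.10.9 were used.

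The rule for named regions took the 10 members of highest score, the 5 farthest from Pol II, the 5 closest to a BMH-21 Pol I peak, the 5 largest runs and the peaks next to the limits. Members and lists were chosen with earlier results of these data known. Planned counts in genes, at gene starts, of GC content, repeats and motifs, and over gene lists were not computed, since no hg19 genome or annotation was used. The alternatives with skipped numbers were added after seeing the data.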

Additional observations from a re-analysis of the deposited data

How the results depend on the processing

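Of 40 alternative values for 4 results, 15 stayed within the interval of the main value or, for the number of members, within 1.5 times of it. With scores at or above the list median, 11430 members had a median score of 150.7 and 34.1% had a Pol I neighbour within 10 kb. At most 500 bp in width left 16537 members, with a median score of 73.8, 30.8% with a Pol I neighbour and 1.54% with a BMH-21 Pol I neighbour. With Pol II excluded within 5 kb these shares were 36.5% and 2.004%, within 20 kb 31.5% and 1.54%, and by the DMSO Pol II list alone 34.6% and 2.06%. With neighbours counted within 1 kb they were 8.78% and 0.433%, and within 50 kb 78.3% and 6.23%. The next settings were chosen after seeing the data. The 3393 members without a skipped DMSO Pol II number had a median score of 85.8, 24.7% with a Pol I neighbour and 0.943% with a BMH-21 Pol I neighbour, the last being lower by more than 1.5 times. In the 347 without a skipped number in either list the values were 84.7, 30.3% (interval 25.5 to 35.4) and 1.44% (interval 0.469 to 3.33). The intervals of both shares include the main values of 33.1% and 1.72%, so in this small set the shares could not be told apart from the main ones. Lower numbers follow from the stricter rules, and otherwise the cause was not tested. Leaving out X and Y, or peaks up to 1 Mb from each chromosome's longest stretch without peaks, kept all 4 results in range. No paired analysis was possible because each group has 1 library. Alternatives for genes, gene starts, GC content and repeats were not run.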
